A study of Homo sapiens with 6 samples.

Results

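The genes described here are 10 nuclear genes whose products transcribe, replicate or stabilise the mitochondrial genome and its RNA, out of 45019 rows in the deposited tables. They were given as a list by gene name: POLRMT, TFAM, TFB2M and TEFM for transcription, TFB1M for rRNA methylation, POLG for DNA replication, and LRPPRC, SLIRP, FASTKD2 and GRSF1 for RNA stability. All 10 were found, and all 10 passed the filter on low values (a mean of at least 10 normalized reads). The cells were MDA-MB-468, an established human line from a triple-negative breast cancer of the basal-like kind. Untreated cells were compared with cells kept for 10 days in DETA/NO, a slow donor of nitric oxide, at 100 µM. Every 48 h the cells of a replicate were pooled, counted and replated, and the compound was added again after 4 h. No group given the carrier of the nitric oxide alone was analysed here. Total RNA was sequenced in 3 labelled samples per group, but the files of DETA/NO samples 1 and 2 were identical. They enter once, as the merged DETA/NO library, beside DETA/NO library 3, which leaves 3 untreated and 2 treated libraries. Whether the replicates were separate cultures is not stated in the labels, so the p-values speak only to the spread among these libraries, which may be technical.

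Human mitochondria carry a small circular genome that encodes subunits of the respiratory chain together with the rRNAs and tRNAs needed to make them. Every protein that copies, transcribes and processes this genome comes from nuclear genes. Transcription starts when TFAM bends the promoter DNA and TFB2M opens it for the RNA polymerase POLRMT, and the long transcripts are then cut, modified and held stable by RNA-binding proteins that gather in granules beside the DNA. NRF1 and GABPA, nuclear transcription factors, are known to bind the promoters of several of these genes.

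Depth lay between 28897422 and 34637343 recovered reads per library. The epithelial and basal markers of the line were abundant, with EGFR at 217563 to 247990 normalized reads (the unit of the deposited tables, reads divided by a factor for each library). Among the receptor genes PGR lay at 0.981 to 5.73, ESR1 at 823 to 1093 and ERBB2 at 1429 to 1981. From untreated to DETA/NO libraries the mean of ESR1 went from 834 to 1009 and that of ERBB2 from 1883 to 1479. Of 14 markers of fibroblasts, immune and endothelial cells, 8 lay under the filter, among them DCN, LUM and CD3E at 0 to 1.91, and CD68 was listed at 0. The 14 summed to 952 to 986 in untreated and 1386 to 1435 in DETA/NO libraries. Of the 6 tested, 4 rose and 0 fell in the main test given below, where 21.7% of all genes tested rose and 21.7% fell. The means of these 4 went from 13.3 to 33.8 in PTPRC, from 74.0 to 173 in CDH5, from 175 to 256 in KDR and from 599 to 839 in COL1A1. The part of the cells behind these markers in the results below was not tested. Each value is a share of all counted RNA, and in such bulk libraries fewer cells of a kind and less RNA per cell cannot be told apart.

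After 10 days in DETA/NO, 6 of the 10 genes were higher and 0 lower in limma, called where the p adjusted by Benjamini-Hochberg lay under 0.05. Of the 16409 genes tested, 21.7% were higher and 21.7% lower. The 10 genes were chosen with earlier results of these data known, so setting them beside these shares is no test of the list. At an unadjusted p under 0.05, 7 of the 10 were higher and 0 lower, and edgeR and DESeq2 also called 0 lower. POLG rose most, followed by POLRMT, LRPPRC, GRSF1, SLIRP and TFB2M. TFAM, TEFM, TFB1M and FASTKD2 did not pass. All changes were small. In POLG the DETA/NO mean lay 21.7% above the untreated mean, and the median log2 fold change of the 10 genes was 0.17, against -0.00016 over all genes tested. Among genes with a mean of at least 100, a level that all 10 reached, 26.5% were higher and 25.7% lower in the same fit. In 7 of the 10 genes the DETA/NO libraries were both higher than all untreated ones, and in 1 both were lower, where this held for 30.4% and 30.8% of all genes tested. Leaving out the merged library left 3 of the 10 genes higher, POLG, LRPPRC and GRSF1, against 17.0% of all genes; the lone DETA/NO library was then assumed to vary like the untreated ones. Limma without a mean-variance trend and robust variances called these 3 too and no other of the 10, against 13.8% of all genes.

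**Figure D1:**
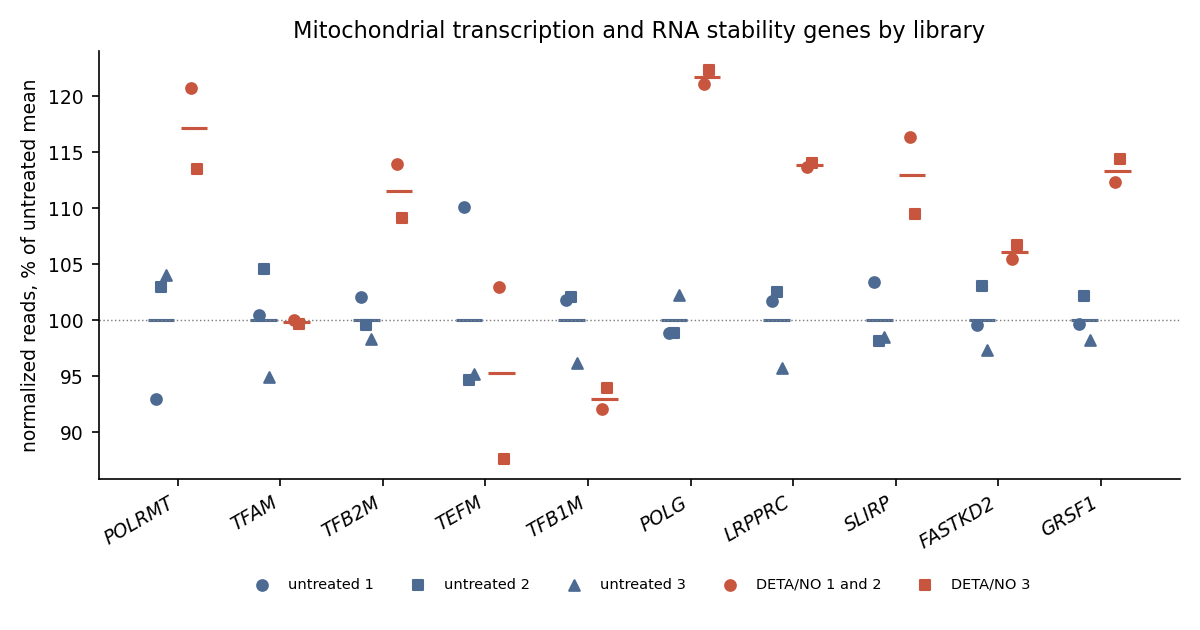
Normalized reads of the 10 genes in each library as a percentage of the gene's untreated mean (vertical axis). Blue marks are the 3 untreated libraries, red marks the 2 DETA/NO libraries, and short lines the group means. Both red marks lie above all blue marks in 7 genes, overlap them in TFAM and TEFM, and lie below them in TFB1M.

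**Figure D2:**
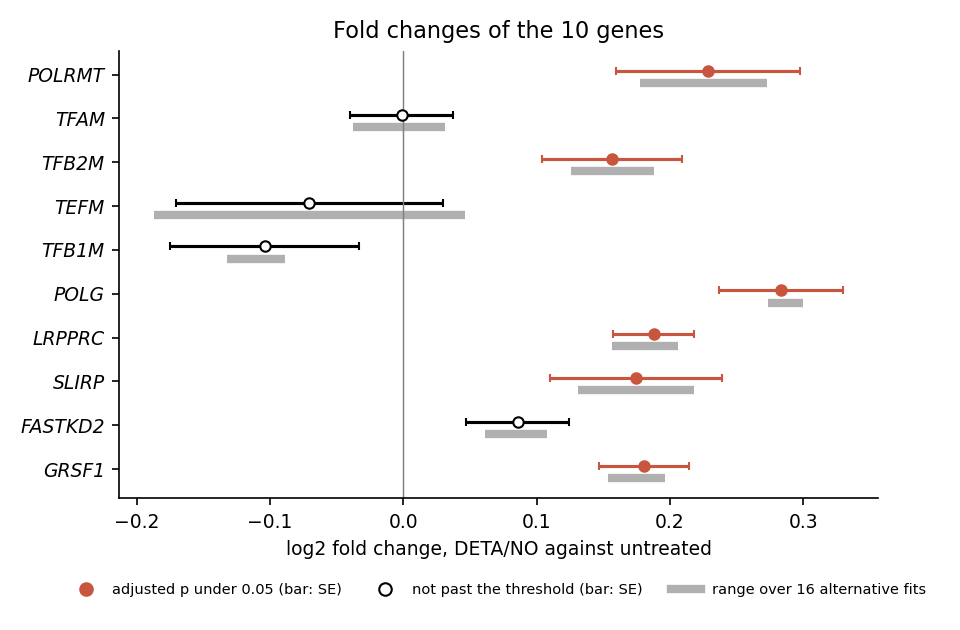
Log2 fold change of each gene (horizontal axis) with its standard error, filled where the adjusted p was under 0.05, and in grey the range over 16 alternative fits. TFAM and TEFM are the genes whose grey range crosses 0.

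Of the proteins that start transcription, the polymerase and the promoter-opening factor rose, and TFAM did not pass the test. POLRMT, the RNA polymerase of mitochondria (chromosome 19, 617224 to 633604), was counted at 535, 593 and 599 normalized reads in untreated cells, at 695 in the merged DETA/NO library and 653 in DETA/NO library 3. The DETA/NO libraries lay above all untreated ones, and untreated library 1 was the lowest. Its log2 fold change was 0.23 ± 0.069 (SE; limma adjusted p = 0.00744). That call was lost without untreated library 1 (adjusted p = 0.0591) and without the merged library (adjusted p = 0.100), and in limma without trend and robust variances (0.0741).

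TFB2M, which melts the promoter for the polymerase (chromosome 1, 246540560 to 246566324), was counted at 1047, 1021 and 1008 in untreated cells, then at 1168 in the merged library and 1119 in library 3. The groups did not overlap, and the merged library was the higher of the DETA/NO pair. It rose by 0.16 ± 0.052 on the log2 scale (limma adjusted p = 0.0156), and the call was lost when the merged library was left out (adjusted p = 0.153), in DESeq2 (0.0668) and in limma without trend and robust variances (0.0568).

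TFAM, which also packs the mitochondrial DNA into nucleoids (chromosome 10, 58385022 to 58399221), gave 3527, 3669 and 3333 normalized reads without the compound and 3509 and 3498 with it. Both DETA/NO values fell inside the untreated range. The log2 fold change was -0.0012 ± 0.039 (limma adjusted p = 0.984). Set against TFAM in the same library, POLRMT had a ratio of 0.152 to 0.180 in untreated cells and of 0.187 to 0.198 in DETA/NO cells, which do not overlap; this difference was not tested.

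TEFM, the factor that keeps the polymerase moving along the template (chromosome 17, 30897336 to 30906820), varied most between libraries. Untreated cells gave 307, 264 and 265 normalized reads, the merged library 287 and DETA/NO library 3 244, so the groups overlapped. It also rested on the fewest reads, 257 to 321 per library, where counting alone gives an SD of about 6.24%. The log2 fold change was -0.07 ± 0.100 (limma adjusted p = 0.608), and it was 0.05 without DETA/NO library 3. Other genes cover 26.1% of its exon bases.

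TFB1M is a paralog of TFB2M that methylates the small-subunit rRNA and is not needed to open promoters. On chromosome 6 (155257509 to 155314493), it was read 539, 541 and 509 times in untreated cells after normalization and 488 and 498 times in DETA/NO cells. Among the 10 genes it was the only one with both DETA/NO libraries below all untreated ones, but the log2 fold change of -0.10 ± 0.071 did not pass (limma adjusted p = 0.250). TIAM2, on the opposite strand with a mean of 613 normalized reads, shares 7.86% of its exon bases. The ratio of TFB2M to TFB1M lay at 1.89 to 1.98 in the untreated libraries and at 2.25 and 2.40 in the DETA/NO libraries. That these ratios do not overlap follows from the values of both genes, and the difference was not tested.

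The 250 bases before the RefSeq start of the polymerase gene and of both paralogs are shown because all 3 hold GCATGCGC, the core of the NRF1 site, while POLRMT and TFB2M passed the test and TFB1M did not. Capitals mark matches on either strand, which overlap each other in TFB1M and, at 1 place, in POLRMT; sequences are from RefSeq (GRCh38.p14) and run 5′ to 3′ on the gene's strand.
POLRMT (chr19:633538-633787, minus strand): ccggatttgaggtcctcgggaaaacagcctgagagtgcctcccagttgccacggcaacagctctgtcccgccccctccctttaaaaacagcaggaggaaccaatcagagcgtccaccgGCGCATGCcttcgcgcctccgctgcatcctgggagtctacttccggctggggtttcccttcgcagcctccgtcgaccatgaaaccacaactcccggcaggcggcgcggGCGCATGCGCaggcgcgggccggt
TFB1M (chr6:155314485-155314734, minus strand): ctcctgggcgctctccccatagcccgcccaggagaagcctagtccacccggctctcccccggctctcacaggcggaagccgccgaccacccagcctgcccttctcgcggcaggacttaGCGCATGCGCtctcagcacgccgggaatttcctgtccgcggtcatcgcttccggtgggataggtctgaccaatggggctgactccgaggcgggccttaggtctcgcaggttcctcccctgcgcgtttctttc
TFB2M (chr1:246566262-246566511, minus strand): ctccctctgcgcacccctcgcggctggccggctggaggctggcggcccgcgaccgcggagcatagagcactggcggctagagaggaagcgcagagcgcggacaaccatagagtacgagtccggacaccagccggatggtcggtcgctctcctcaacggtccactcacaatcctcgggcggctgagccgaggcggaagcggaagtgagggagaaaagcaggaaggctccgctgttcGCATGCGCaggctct
All 10 genes matched a RefSeq promoter, in 12 windows. GCATGCGC occurred in the windows of POLRMT, TFB1M and TFB2M, and in 2.63% of all 35116 windows of this length (3.22% of 27305 genes). CCGGAAG, a site of the ETS family to which GABPA belongs, was present in POLRMT, TFB1M and SLIRP and in 8.52% of all windows (10.2% of genes). The windows of POLG, LRPPRC and GRSF1, the genes that passed the test in all 16 alternative fits, held no exact match to either string. These are exact matches of letters in the window, variants of the sites were not searched, and no binding was measured. The part of such sites in the changes was not tested.

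POLG, the catalytic subunit of the DNA polymerase that copies the mitochondrial genome (chromosome 15, 89305198 to 89334861), rose most of the 10 genes. Untreated cells had 1296, 1297 and 1341 normalized reads and DETA/NO cells 1588 and 1604. Each group was tight and the gap between them was wide. The log2 fold change was 0.28 ± 0.047 (limma adjusted p = 8.67e-06), and it lay between 0.27 and 0.30 in the 16 alternative fits. On the opposite strand FANCI, a DNA repair gene with a mean of 3968 normalized reads, shares 7.66% of the exon bases of POLG. Other genes cover 40.9% of the annotated span of POLG, and the part of this overlap in its values was not tested.

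LRPPRC and SLIRP bind each other and hold mitochondrial mRNAs stable. LRPPRC (chromosome 2, 43886508 to 43996005) was the most abundant of the 10, with 13955, 14064 and 13136 normalized reads in untreated cells and 15595 and 15639.6 in DETA/NO cells. The groups were apart, and untreated library 3 was the lowest. It rose by 0.19 ± 0.031 on the log2 scale (limma adjusted p = 7.83e-06).

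SLIRP (chromosome 14, 77708071 to 77761104) had values of 649, 616 and 618 normalized reads in untreated cells, of 730.2 in the merged library and 687 in library 3. Those groups did not overlap either. SLIRP rose by 0.17 ± 0.065 (limma adjusted p = 0.0281), a call lost when the merged library (adjusted p = 0.232) or untreated library 2 (0.0868) was left out, in DESeq2 (0.108) and in limma without trend and robust variances (0.0647). The ratio of LRPPRC to SLIRP was 21.2 to 22.8 in untreated and 21.4 and 22.7 in DETA/NO libraries, so that the DETA/NO ratios fell inside the untreated range. Other genes cover 82.0% of the annotated span of SLIRP, and SNW1, which lies there on the opposite strand, was listed at 0 in every library; the part of this overlap in the SLIRP values was not tested.

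Of the remaining RNA-binding genes, GRSF1 rose and FASTKD2 did not pass. GRSF1, a protein of the RNA granules that binds G-rich RNA (chromosome 4, 70815782 to 70839945), had 4504, 4616 and 4438 normalized reads without and 5075 and 5169 with DETA/NO. No library of 1 group reached the other group. Its log2 fold change was 0.18 ± 0.034 (limma adjusted p = 4.91e-05).

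FASTKD2, which is needed for the large-subunit rRNA and the assembly of the mitochondrial ribosome (chromosome 2, 206765357 to 206792509), was counted at 2609, 2702 and 2551 in untreated cells and at 2765 and 2797 in DETA/NO cells. The groups were apart by a narrow margin, and the log2 fold change of 0.09 ± 0.039 did not pass (limma adjusted p = 0.0734). It passed when the identical files were entered as separate libraries (adjusted p = 0.0265).

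The transcripts that these proteins make and bind were read in the same libraries. The 13 mitochondrial mRNAs held 7.78%, 8.04% and 7.94% of all values in the untreated libraries and 6.80% and 7.17% in the DETA/NO libraries (exact two-sided permutation p = 0.2, the smallest that 10 arrangements allow), with log2 fold changes from -0.45 (MT-CYB) to 0.09 (MT-ND4). The rRNAs MT-RNR1 and MT-RNR2 had log2 fold changes of 0.53 and 0.21 (limma adjusted p = 8.47e-15 and 5.63e-05). But MT-RNR2 did not pass under quantile normalization (0.06, adjusted p = 0.172), with no filter (0.0969) or without trend and robust variances (0.0552). The ratio of MT-RNR1 to MT-RNR2 was 0.061 to 0.062 in untreated libraries, 0.081 in the merged library and 0.073 in DETA/NO library 3. The part of library preparation in these rRNA values was not tested. Of the 13 mRNAs 10 fell and 2 rose, where 21.7% of all genes tested fell and 21.7% rose.

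Per length, the 10 genes spanned more than an order of magnitude in level. On an RPKM scale (recovered reads per kilobase of merged GENCODE exons, scaled to the library's total), LRPPRC came first with 43.9 ± 1.60 (SD, n = 3 untreated). TFAM followed at 19.5 ± 0.883, GRSF1 at 18.1 ± 0.293, TFB2M at 17.3 ± 0.410 and FASTKD2 at 13.5 ± 0.338. SLIRP lay at 7.45 ± 0.263, POLG at 6.85 ± 0.144, TFB1M at 6.04 ± 0.201, POLRMT at 3.51 ± 0.197 and TEFM at 2.70 ± 0.252. The ranges of neighbours in this order did not overlap among the untreated libraries, but the order rests on the length used. With the longest transcript in place of merged exons SLIRP came second, at 22.7, and the ranges of GRSF1 and TFAM, and of POLRMT and TEFM, overlapped. With the part of each span that no other gene covers, TFAM came first, ahead of GRSF1 and LRPPRC. The counting settings are not given in the sources used here, so which length fits the values is unknown.

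**Figure D3:**
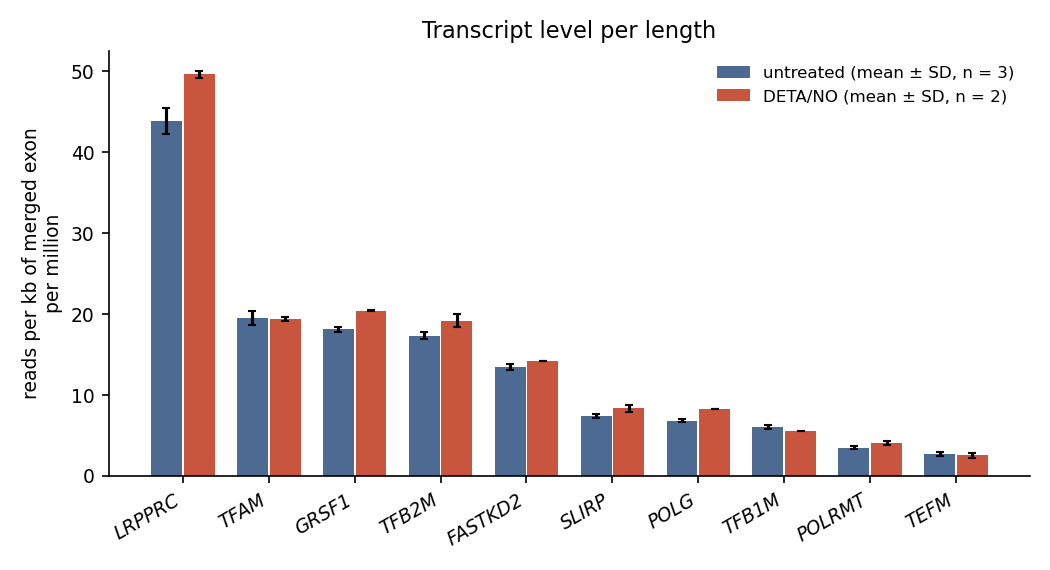
RPKM over merged exons (vertical axis, from 0) for each gene, as means with SD of 3 untreated (blue) and 2 DETA/NO (red) libraries. LRPPRC stands at 43.9 in untreated cells, and POLRMT and TEFM at 3.51 and 2.70 are the lowest.

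The wider machinery was read from 58 other genes of mitochondrial DNA and RNA upkeep, also chosen with earlier results of these data known. Of these, 48 were tested, 20 rose and 4 fell, where 21.7% of all genes tested rose and 21.7% fell. Their median log2 fold change was 0.11. Leaving out 1 library at a time gave 15 to 20 higher and 3 to 6 lower. Of the 10 under the filter, 9 were listed at 0 in every library, and 7 of those 9 have other genes over more than 99% of their span, which held for 0 of the 48 tested. They were FASTKD3, FASTKD5, MGME1, PRORP, TRMT5, RPUSD3 and DDX28, besides RNASEH1 and MRM2; whether the cells express them was not read from these values.

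The highest fold change among these genes was in the RNA-degrading complex. PNPT1, the polynucleotide phosphorylase that degrades mitochondrial RNA, stood at 3103, 2940.0 and 2907 normalized reads in untreated cells, at 4595 in the merged library and 4112 in DETA/NO library 3. It rose by 0.54 ± 0.042 on the log2 scale (limma adjusted p = 6.79e-11). PNPT1 is also known as a gene that interferon induces. SUPV3L1, the helicase that works with it, went from 2238, 2132 and 2155 to 2761 and 2800.3, a log2 fold change of 0.35 ± 0.040 (limma adjusted p = 8.79e-09). Of the 6 tested genes of RNA decay and tailing these 2 rose and 0 fell, where 21.7% of all genes tested rose and 21.7% fell. The poly(A) polymerase MTPAP had a log2 fold change of 0.03 ± 0.054.

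Beside POLG, 4 of 10 tested genes of DNA replication and the nucleoid rose and 1 fell, against 21.7% and 21.7% of all genes tested. TWNK, the replicative helicase Twinkle, went from 517, 495 and 499 to 776 and 668 normalized reads (log2 fold change 0.51 ± 0.071, limma adjusted p = 5.20e-07). ATAD3A, a membrane ATPase at the nucleoid, rose by 0.38 ± 0.051 (limma adjusted p = 2.49e-07), and reads of its near-identical copy ATAD3B may not be separable from it. PRIMPOL, a primase that also acts as a polymerase, fell by 0.17 on the log2 scale (limma adjusted p = 0.0401), a call that 4 of the 5 libraries each ended when left out: untreated 1 (0.0930), untreated 2 (0.0913), the merged library (0.101) and DETA/NO 3 (0.146). It was also lost in DESeq2 (0.153), under quantile normalization (0.0546), with no filter (0.0678) and with the replicate block (0.0901). POLG2, the accessory subunit of POLG, had a log2 fold change of -0.16 ± 0.070 and did not pass (limma adjusted p = 0.0662). It passed as lower when untreated library 2 or untreated library 3 was left out, but not when untreated library 1 was.

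Of 6 tested genes on the list for processing of the long transcripts and their tRNAs, 3 rose and 0 fell, against 21.7% and 21.7% of all genes tested. When untreated library 1 or DETA/NO library 3 was dropped 1 rose, when untreated library 2 was dropped 2 rose, and when the merged library was dropped 2 rose and 1, PTCD2, fell. HSD17B10, a subunit of mitochondrial RNase P, rose by 0.14 (limma adjusted p = 0.0175), but not when untreated library 1 (0.0802), untreated library 2 (0.0722) or DETA/NO library 3 (0.163) was dropped. Nor did it pass in DESeq2 (0.0686), with the replicate block (0.0659) or in limma without trend and robust variances (0.114). PTCD3, an RNA-binding protein of the mitochondrial ribosome, rose by 0.12 (limma adjusted p = 0.00870), but not when the merged library was dropped (0.0619) or without trend and robust variances (0.124). TRMT10C, another RNase P subunit, had a log2 fold change of -0.01 ± 0.049.

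Of 11 tested enzymes and granule proteins that modify mitochondrial rRNA and tRNA, 5 rose and 1 fell. Over all genes tested 21.7% rose and 21.7% fell, which is also the share to set beside the FASTK and MTERF counts below. PUS1, a pseudouridine synthase, rose by 0.27 ± 0.055 (limma adjusted p = 0.000160), and DHX30, a granule helicase, went from 1641, 1545 and 1615 to 1832 and 1833 normalized reads (log2 fold change 0.20). NSUN3, a tRNA methyltransferase, fell from 1227, 1322 and 1160 to 1033 and 1044 (log2 fold change -0.25 ± 0.055, limma adjusted p = 0.000374, and 0.0560 without trend and robust variances). In the FASTK family outside FASTKD2, 1 of 3 tested genes rose, TBRG4, by 0.25 ± 0.039 (limma adjusted p = 3.14e-06), while FASTK and FASTKD1 had log2 fold changes of -0.06 and -0.09. In the MTERF family, 1 of 4 rose, MTERF4, which brings a methyltransferase to the large ribosomal subunit, by 0.34 ± 0.072, with other genes over 77.6% of its span.

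Of 8 nuclear regulators of these genes, 4 were higher and 2 lower, where 21.7% of all genes tested were higher and 21.7% lower. Both factors whose sites were searched above fell. NRF1 had 1576, 1550.0 and 1638 normalized reads in untreated cells and 1392 and 1497 in DETA/NO cells (log2 fold change -0.14 ± 0.048, limma adjusted p = 0.0198), a call lost with the merged library left out (0.286), in DESeq2 (0.0908) and without trend and robust variances (0.125). GABPA went from 4039, 3932 and 3886 to 3454 and 3550.5 (log2 fold change -0.17 ± 0.035, limma adjusted p = 0.000149). PPRC1, a coactivator of the PGC-1 family, rose by 0.28 ± 0.042 (limma adjusted p = 2.07e-06) and YY1, a zinc finger factor, by 0.12 ± 0.034 (limma adjusted p = 0.00319, and 0.0638 without trend and robust variances). When untreated library 2 or DETA/NO library 3 was dropped, 2 of the regulators rose, and 1 fell when the merged library was.

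**Figure D4:**
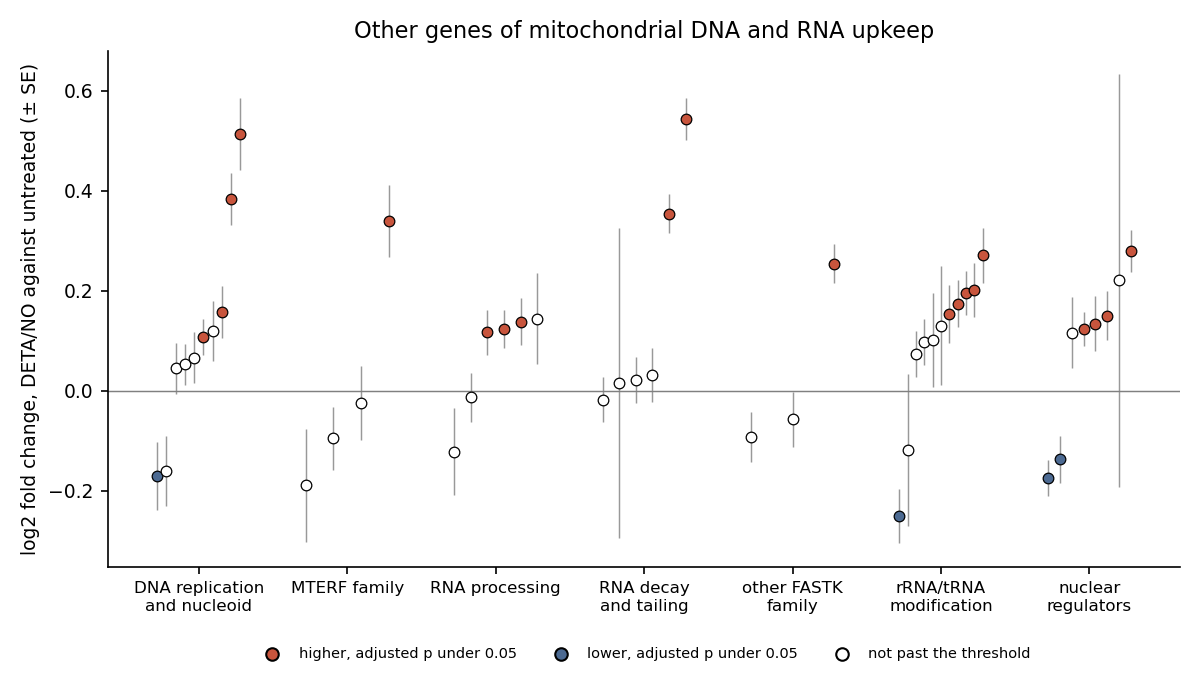
Log2 fold change with SE (vertical axis) of the 48 tested genes of mitochondrial DNA and RNA upkeep outside the list of 10, by role. Red marks rose and blue marks fell at an adjusted p under 0.05; PNPT1 at 0.54 is the highest and NSUN3 at -0.25 the lowest.

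The gene whose values over the 5 libraries were most like those of LRPPRC, the member of the 10 with the smallest adjusted p, was NOL8. Likeness was the Euclidean distance between log2 values centred on each gene's mean, over 11507 genes with a mean of at least 100, and it was 0.0138 for NOL8, 0.0147 for PARVA and 0.0189 for KIF5B.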

How the data were processed

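RNA of 6 samples was sequenced. The authors deposited 1 normalized read count (signal) per gene and library. Per the submitters' processing notes, the tools included TopHat2 2.1.1, featureCounts 2.0.3 and DESeq2 1.38.3, with the GRCh38 build; annotation and counting settings are not given in the sources used here. Per the values, 100% of those above 0 were whole reads times 1 factor per library (tolerance 0.01), which gave back the reads.

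Titles of the samples set the groups. Identical files, both headed as the same library, were averaged. The main test was limma 3.58.1 (R 4.3.3; trend and robust) on log2(value + 1), with a mean of at least 10 required of each gene, with Benjamini-Hochberg adjustment over all of them; this scale understates changes of low genes. edgeR 4.0.16 and DESeq2 1.42.0 on those reads were alternatives (edgeR called 3578 genes higher and 3423 lower). So were changes of scaling, pseudocount and filter, a block for the replicate letter in the column header, and leaving out a library. Positions, exon lengths and overlaps are from GENCODE 29 (GRCh38).

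The 10 genes and the lists were chosen with earlier results of these data known. Named besides the 10 were up to 2 rising and 2 falling genes per list with the smallest adjusted p; POLG2, MTPAP, TRMT10C, PTCD2, FASTK, FASTKD1, ATAD3B and the genes at 0 were chosen after their values were seen. The test was checked on simulated counts. Row names that had turned into dates (27) stayed in the tests unnamed.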

Additional observations from a re-analysis of the deposited data

How the results depend on the processing

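The count of higher genes among the 10 was 6 in most alternative fits. It was 3 in limma without trend and robust variances, 4 in DESeq2, 7 with the identical files as separate libraries, and 3 to 6 with 1 library left out; 0 were lower in each of the 16. The call of POLG, LRPPRC and GRSF1 held in all 16, of TFB2M in 13, and of POLRMT and SLIRP in 12 each. TFAM had log2 fold changes from -0.038 to 0.031 and TEFM from -0.11 to 0.046 with 1 untreated library or DETA/NO library 3 left out, and -0.0035 and -0.19 without the merged library, with neither past the threshold. Of the other upkeep genes, 10 were higher in limma without trend and robust variances, and 2 were lower in DESeq2. Over all genes, limma without trend and robust variances called 2262 higher where the main test called 3565. The difference in the share of mitochondrial mRNAs was -0.94 percentage points, and -1.12 to -0.877 with 1 untreated library or DETA/NO library 3 left out and -0.75 without the merged library. The cause of these shifts was not tested.

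With the replicate letter in the column header as a block, 5 of the 10 genes were higher. That letter put the merged library with untreated library 2, and DETA/NO library 3 with untreated library 3. POLRMT lost its call in that fit (limma adjusted p = 0.0586), and TFAM and TEFM had log2 fold changes of 0.0029 and 0.00046. The deviations of libraries in the same block from their group means had correlations of 0.0011 and 0.030. With 2 DETA/NO libraries, the deviations of 1 mirror those of the other. These correlations therefore cannot tell whether the libraries of a block share a culture or batch. Since untreated library 1 has no partner by header letter, the fit with the block gives the same fold changes as leaving it out.

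With 3 against 2 libraries and 257 to 564 reads per library behind TEFM and TFB1M, changes of a few percent were not detectable there.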
